A study of Homo sapiens with 9 samples.

Results

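The cells described here are THP-1 cells, an established human line from an acute monocytic leukaemia, that were treated with PMA and then given PBS as the vehicle. PMA (phorbol 12-myristate 13-acetate) activates protein kinase C and is widely used to make THP-1 monocytes stop floating, attach and take on macrophage features. The labels give the genotype as WT and describe suspended cells that adhere after the phorbol ester. The control group holds 3 of the 9 RNA-seq libraries of the series, and it was chosen by label alone; the other libraries received lipopolysaccharide, without or with what the labels call ABS, and are not used here. Only levels in these 3 libraries are described, and no library from cells without PMA was among the samples used, so what PMA itself changed was not tested. The labels do not say whether the 3 libraries came from separate cultures, and the spread given with each mean may therefore be technical. A line is also 1 clone with its own genetic changes, which limits it as a model of a macrophage.

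Macrophages are phagocytes that recognise microbes and dying cells through surface receptors, digest them in lysosomes and answer with cytokines and chemokines. Their precursors pass through a promyelocyte stage, at which serine proteases of the azurophil granule are made, and PU.1 (SPI1) and the C/EBP factors direct both stages. As macrophages mature, they usually leave the cell cycle, switch granule protease genes off and raise scavenger receptors, CD14 and the integrin CD11b (ITGAM).

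Of 16222 genes listed, 15272 had a read in at least 1 control library. The deposited counts summed to 39999637, 41608801 and 39791729 in control 1, 2 and 3. Levels are in FPKM, the count of a gene divided by its length and by the library's total, which allows levels of different genes to be set side by side. Genes with a mean of 100 FPKM or more are termed high, 10 to 100 intermediate, 1 to 10 low, and under 1 with any read trace. By this division 753 genes (4.64%) were high, 4003 (24.7%) intermediate, 5167 (31.9%) low, 5349 (33.0%) trace, and 950 (5.86%) had no reads. The high genes held 68.5% of the summed FPKM. Rescaling each library to TPM multiplied the levels of named genes by a median of 2.17 and put 1528 genes at 100 or more, so the class names below hold for FPKM only. In the whole list, 93.8% of the genes fell in the same class in all 3 libraries.

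Control 3 stood apart from the other two. Pearson correlations of log2 levels across genes were 0.998 between control 1 and 2, and 0.997 for each pair with control 3. Among the 10 genes with the largest coefficient of variation (CV) at 10 FPKM or more, 9 were highest in control 3, and their median length was 8687 bases. Without control 3 the median CV of genes at 10 FPKM or more was 2.81%, against 5.76% with it. Where 3 values follow each other below, they are control 1, control 2 and control 3, in that order, and errors are SDs over n = 3.

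The fixed markers of the baseline cells ranged from the high to the low class. CAP1, which recycles actin monomers, and PPT1, a lysosomal thioesterase, were high, at 3141, 3211 and 3299 FPKM and at 1189, 1187 and 1193 FPKM. The lysosomal protease CTSB was intermediate at 43.2, 43.2 and 42.8 FPKM (43.1 ± 0.204). CD14, the co-receptor for lipopolysaccharide, was only just intermediate at 12.5, 11.2 and 11.9 FPKM (11.9 ± 0.667, rank 4291). ITGAM, the alpha chain of the complement receptor Mac-1, was low at 3.199, 3.55 and 4.08 FPKM (3.61 ± 0.443, rank 7374). Both surface markers lay above the median of all genes, 2.65 FPKM, and below CTSB in every library. With the longest annotated protein-coding transcript as length, CD14 was at 9.62 FPKM and so in the low class.

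Of 34 listed genes that mark monocytes and macrophages, 7 were high, 9 intermediate, 11 low and 7 trace. The share at 10 FPKM or more, 47.1%, stands beside 29.3% of all genes listed. The high members were S100A9, FCER1G, TYROBP, CD68, SPI1, LYZ and TREM2. Trace members included CD163 (0.180 ± 0.101 FPKM), MERTK (0.344 ± 0.113), FCGR3A (0.127 ± 0.131), VCAN (0.0326) and FCN1 (0.00220). Genes of other cell types were low as a set: of 79 listed markers of T, B, NK, mast, erythroid, dendritic, osteoclast, stromal, endothelial and epithelial cells, none was high and 3 were intermediate. These were PECAM1 at 36.1 FPKM and CD209 at 10.7 FPKM, which myeloid cells can also carry, and the granule membrane gene NKG7 at 25.4 FPKM. In the T cell list CD2, CD5, LCK and TRAT1 had no reads. In bulk RNA, fewer cells of a type and less RNA per cell cannot be told apart. MRC1, the mannose receptor, has no entry in the table and was not analysed here.

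The highest gene was FTL, the light chain of the iron store ferritin, at 10905, 11126 and 10603 FPKM, and its heavy chain partner FTH1 held rank 26 at 2187, 2117 and 2274 FPKM. FTL exceeded FTH1 in every library, by 4.97 ± 0.297 times. ACTB, cytoplasmic beta-actin, came second at 6999 ± 387 FPKM, lowest in control 3. Ribosomal protein genes filled much of the top: RPS2 (5538 FPKM), RPS18 (4764) and RPL30 (3519) were among the 10 highest. As a list, 75 of 80 cytoplasmic ribosomal proteins were high, and together they held 21.6 ± 0.781% of the summed FPKM. The top 10 also held YBX1, a cold-shock domain protein that binds RNA and DNA (3720.15 ± 130 FPKM), PTMA (prothymosin alpha, 3495) and CAP1. The 10 highest genes held 10.7 ± 0.114% of the summed FPKM and the 100 highest 38.8 ± 0.492%.

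The 30 highest genes also included the actin binder TMSB4X, RPLP0, the elongation factor EEF1A1, RPS27, RPL41, CHI3L1, RPL8, ACTG1, RPS25, RPL7A, LGALS1, RPL12, RPL13A, RPL35, the myosin light chain MYL6, RPL27, RPLP2 and GAPDH. CHI3L1 and LGALS1 are the secreted proteins among them. The median of the length used for FPKM was 1046.5 bases for the 100 highest genes and 3858.5 bases for all genes. FPKM divides by this same length, so the ranking is not independent of it. The length used matters for single genes. With the longest annotated protein-coding transcript in its place, TMSB4X was at 1156 FPKM, RPL30 at 1552, RPS25 at 1536, RPLP2 at 1269, MYL6 at 1105 and YBX1 at 7272, while 92 of the 100 highest genes kept their place among the 100 highest.

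The lowest ribosomal protein genes lay far below the rest, with RPL17 at 8.75 ± 0.256 FPKM, RPS10 at 8.45 ± 2.10 and RPL36A at 0.466 ± 0.234. Each of them forms part of a read-through gene in RefSeq, a transcript that runs across neighbouring genes. All 283 listed genes that form part of such a transcript had a median of 1.18 FPKM, against 2.65 FPKM for all genes, and 46.6% of them were under 1 FPKM, against 38.8%. Whether overlapping gene models lowered their counts was not tested. RPS10 was at 4.95 FPKM with the annotated length.

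**Figure D1:**
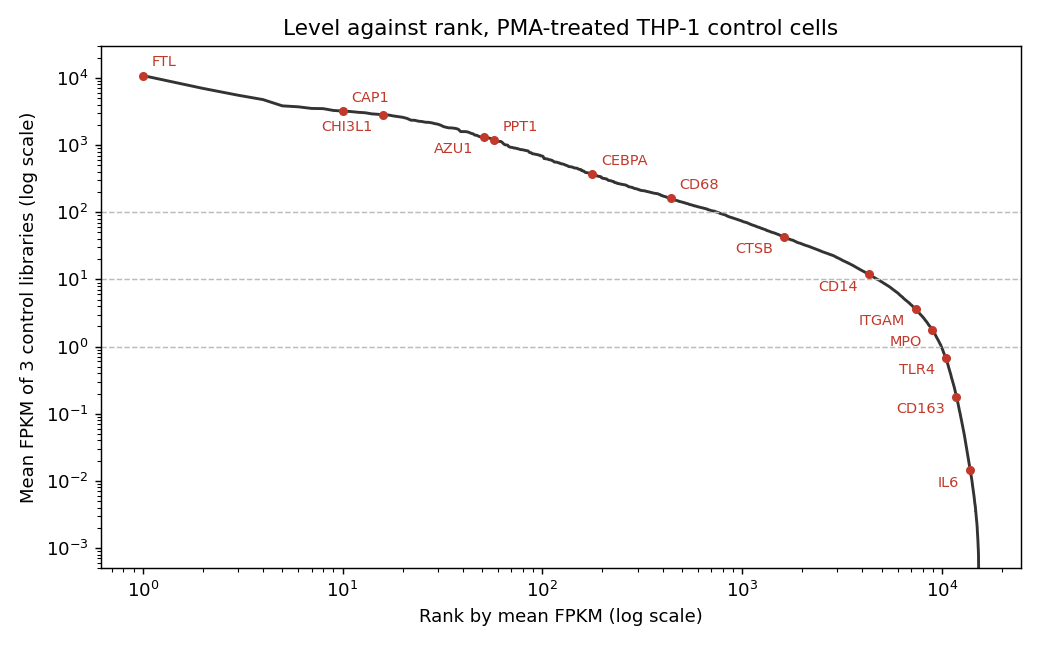
Mean FPKM of the 3 control libraries (y axis, log scale) against rank (x axis, log scale) for every gene with a read; dashed lines mark 1, 10 and 100 FPKM and red points mark named genes. FTL leads at 10878 FPKM, CAP1 and PPT1 lie in the top 100, and CD14, ITGAM, MPO, TLR4 and CD163 lie on the steep part of the curve.

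Among receptors, the signalling adaptors were the most abundant. Of 32 listed Fc receptors and adaptors, 4 were high, 8 intermediate, 10 low and 10 trace. FCER1G, the gamma chain that carries the activating motif for Fc receptors, was at 329, 290 and 301 FPKM. TYROBP (DAP12), the adaptor of TREM2, was at 202, 182 and 192 FPKM, below FCER1G in every library by a ratio of 0.627 ± 0.0134. TREM2, a lipid-sensing receptor, was at 101, 97.6 and 114 FPKM (98.1 and intermediate with the annotated length), and the neonatal Fc receptor FCGRT was at 123 FPKM. FCGR1A, the high-affinity IgG receptor CD64, was at 99.6, 96.5 and 98.0 FPKM, just under the high class (60.1 with the annotated length). FCGR2A (CD32A) was at 21.1 ± 1.54 FPKM, and FCGR3A (CD16A) had 2, 8 and 25 reads, which gave 0.0218, 0.0838 and 0.274 FPKM. The IgG receptors thus stood in a steep order from CD64 through CD32A to CD16A, without overlap between libraries. FCGR genes have close copies, and reads shared between them could be placed differently. The inhibitory receptors LILRB4 (83.8 FPKM, or 41.8 with the annotated length), LAIR1 (56.2) and SIRPA (32.3) were intermediate.

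Scavenger receptors split widely. CD68, a lysosomal glycoprotein used as a macrophage stain, was at 165, 167 and 152 FPKM, the only high member of 18. SCARB1, the HDL receptor, was at 49.7 ± 1.85 FPKM and the collagen receptor MRC2 at 48.2. By contrast CD163, the haemoglobin scavenger, had 0.0722, 0.197 and 0.272 FPKM, and the class A receptor MSR1 had 0.0825, 0.0396 and 0.0276 FPKM. CD36, which takes up oxidised lipids, was low at 3.02 ± 0.329 FPKM (7.50 with the annotated length), MARCO was at 1.34, and SCARA5 had no reads. In all, 11 of the 18 were under 1 FPKM, or 61.1%, against 38.8% of all genes. Of the 517 genes annotated as receptors, 67.9% were under 1 FPKM.

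Toll-like receptors were sparse: of 15 genes of the lipopolysaccharide receptor complex and the Toll-like family, none was high, 2 were intermediate, 2 low and 11 trace. LY86 (MD-1), the partner of CD180, was the highest at 21.5 ± 2.66 FPKM. TLR2, which senses bacterial lipopeptides, was at 6.87, 6.54 and 7.58 FPKM, or 15.7 with the annotated length. TLR4, the lipopolysaccharide receptor, was at 0.655, 0.759 and 0.640 FPKM, from 335, 404 and 326 reads. Its co-receptor LY96 (MD-2) was at 1.07, 0.626 and 0.615 FPKM, from 54, 33 and 31 reads, and it was in the low class with the annotated length. TLR2 exceeded TLR4 in all 3 libraries, by 10.3 ± 1.62 times. TLR3 (0.00272 FPKM) and TLR10 (0.00217) had hardly a read. Of 22 listed cytosolic sensor genes, 2 were high, 3 intermediate, 9 low and 8 trace. The share at 10 FPKM or more was 22.7%, against 13.3% of the Toll-like list and 29.3% of all genes. Among the 517 genes annotated as receptors it was 13.3%. The inflammasome adaptor PYCARD was at 215, 216 and 192 FPKM (138 with the annotated length) and STING1 at 130.5, 135 and 109. NLRP3 was at 36.6, 39.7 and 35.5 FPKM and the DNA sensor CGAS at 19.4. AIM2 (0.0551 FPKM), NLRP1 (0.0243) and ZBP1 (0.00247) were trace.

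Among integrins the shared beta-2 chain ITGB2 was at 272, 256 and 271 FPKM, far above each of its alpha partners. ITGAL (LFA-1) was at 46.9, 46.8 and 55.1 FPKM, ITGAX (CD11c) at 5.51, 6.01 and 6.52, and ITGAM (CD11b) lower still, while ITGAD had no reads. The ratio of ITGAL to ITGAM was 13.8 ± 0.775. These 3 detected alpha chains were highest in control 3. The tetraspanins CD63 (341 FPKM) and CD81 (139) were the other high members of the adhesion list, and the fibronectin receptor chain ITGA5 was at 91.1. Of the complement receptors, C3AR1 (1.94 FPKM) and C5AR1 (1.18) were low and CR1 was trace at 0.000843.

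CCR2, the receptor by which monocytes follow CCL2, led the chemokine receptors at 44.0, 48.1 and 44.2 FPKM. CXCR4 followed at 39.5, 39.6 and 43.9 FPKM and CCR1 at 26.2, 27.8 and 28.7, so that CCR2 and CXCR4 nearly met and CCR1 stayed below both. CX3CR1 was at 9.01 FPKM. CCR7 was at 0.0275 FPKM and CCR4 had no reads. The formyl peptide receptors FPR1 (0.156 FPKM), FPR2 (0.410) and FPR3 (0.0215) were all trace. In this list 4 of 23 listed members reached 10 FPKM, or 17.4%, against 29.3% of all genes. The share was 13.3% among the 517 genes annotated as receptors.

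IL10RB, the shared chain of the IL-10 receptor family, was the only high cytokine receptor, at 125, 130 and 134 FPKM; IL10RA was at 11.2. IL6R followed at 70.3, 75.2 and 69.9 FPKM (37.0 with the annotated length) and TNFRSF1A at 65.9, 68.3 and 55.8. The growth factor receptors of granulocytes and of macrophages were both present, with CSF3R at 34.0, 31.9 and 28.4 FPKM and CSF1R at 18.7, 18.6 and 18.5. CSF3R was higher than CSF1R in every library. FLT3, a receptor of progenitors, was at 9.35 FPKM and KIT was trace at 0.112. CSF2RA and IL3RA lie in the pseudoautosomal region. CSF2RA has 2 entries, and IL3RA is listed only under an entry marked as a second one, so their low values are uncertain. By gene annotation, the highest receptors were EBP, IL10RB, TREM2, FCGR1A, CD4 (96.7 FPKM), SLC1A5, CD74, ADIPOR1, GPR160, IL6R, M6PR, ANPEP, TMEM123, SPN and PAQR4; EBP is a sterol isomerase and SLC1A5 an amino acid carrier, which the annotation also counts as receptors. Of 517 genes so annotated, 3 were high (0.580%) and 67.9% were under 1 FPKM, against 4.64% and 38.8% of all genes.

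For uptake of apoptotic cells, AXL was the highest of the 3 TAM kinases at 14.01, 12.4 and 11.7 FPKM, TYRO3 was at 2.46 and MERTK was trace. LRP1 was at 0.656, 0.532 and 1.15 FPKM, highest in control 3. TIMD4 had no reads. Of the nucleotide and lipid mediator receptors, the prostaglandin E2 receptor PTGER4 (38.4 FPKM), P2RY2 (31.6, or 143 with the annotated length) and P2RX4 (24.6) were intermediate, P2RX7 was low at 1.85 and P2RY13 had no reads.

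Antigen presentation genes differed between the 2 classes. Of 18 listed class I genes, 10 were high, with B2M at 1944, 1840 and 1745 FPKM (1046 with the annotated length) and HLA-B at 577, 573 and 524. Class II and costimulation genes had no high member among 21. The invariant chain CD74 was at 100.3, 100.4 and 82.8 FPKM (187 with the annotated length) and HLA-DRB1 at 93.4, 89.1 and 88.1. HLA-DRA, which encodes the chain that pairs with HLA-DRB1, was at 5.18, 2.96 and 3.22 FPKM, so HLA-DRB1 exceeded it by 25.2 ± 6.35 times. HLA-DRB5 (33.6 FPKM) is a close copy of HLA-DRB1, and reads of these polymorphic genes may be misplaced. CIITA, the class II master regulator, was trace at 0.0699 FPKM, HLA-DQA1 had no reads, and the costimulators CD80 (0.240) and CD86 (0.0275, with 6, 4 and 0 reads) were trace.

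**Figure D2:**
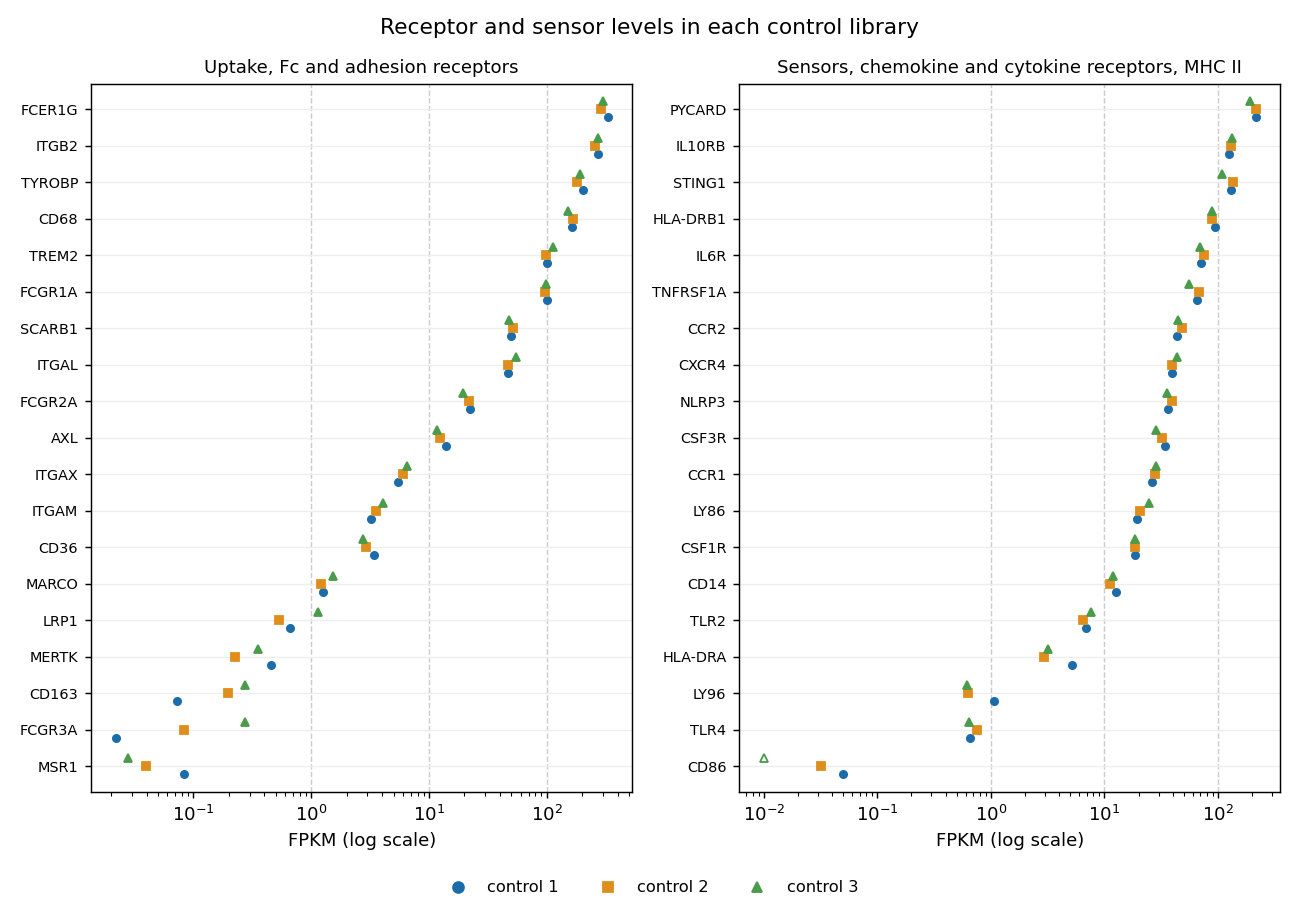
FPKM in each control library (x axis, log scale; circle control 1, square control 2, triangle control 3) for receptors and sensors; an open symbol stands for a value of 0 placed at 0.01, and dashed lines mark 1, 10 and 100 FPKM. FCER1G, ITGB2 and PYCARD lie above 100 FPKM in all 3 libraries, and CD163, MSR1, FCGR3A and CD86 below 1 FPKM.

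Enzymes were described in the order lysosome, granule, matrix, oxidants, lipid mediators and sugar breakdown. Lysosomal enzymes were broadly present: of 38 listed hydrolases, 6 were high and 17 intermediate (60.5% at 10 FPKM or more). Of 20 cathepsins and their inhibitors 12 (60%) reached 10 FPKM, against 29.3% of all genes. PPT1 led the hydrolases with a CV of 0.233%, the smallest spread of the fixed markers. PSAP, the precursor of the saposins, was at 342, 344 and 329 FPKM and LYZ, lysozyme, at 114, 118 and 107. CTSZ (203 ± 17.0 FPKM) and CTSD (202 ± 5.47) were indistinguishable within their spread, and both exceeded CTSL (48.4 ± 0.750), CTSB, CTSH (37.5) and CTSS (31.9). The cytosolic inhibitors CSTB (268 FPKM) and CSTA (195) were high, though CSTB was at 66.9 with the annotated length. The lowest members were CHIT1 (chitotriosidase) at 0.00745 FPKM, from reads in control 3 alone, and ACP5 (tartrate-resistant acid phosphatase) at 0.0163 among the hydrolases, and CTSE at 0.0186 and LGMN at 0.339 among the cathepsins and inhibitors.

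Granule enzymes of the promyelocyte were among the most abundant transcripts. AZU1 (azurocidin, an inactive protease homologue that kills bacteria) was at 1389, 1402 and 1176 FPKM, rank 51. PRTN3 (proteinase 3) was at 1169, 1203 and 1028 FPKM, CTSG (cathepsin G) at 844, 854 and 818, RNASE2 (eosinophil-derived neurotoxin) at 534, 513 and 495 and ELANE (neutrophil elastase) at 366, 367 and 313. All 5 were lowest in control 3, and with that library left out their order is the same. MS4A3, a membrane protein of granulocyte and monocyte progenitors, was at 81.9 ± 4.23 FPKM. MPO, which encodes myeloperoxidase and is usually made beside these proteases, was at 1.28, 1.82 and 2.22 FPKM, rank 8946. RNASE3, a close relative of RNASE2 that may share reads with it, was at 5.44 ± 0.235 FPKM, below RNASE2 by 94.6 ± 4.54 times. Other genes of the granule list were trace or without reads: CAMP was at 0.240 FPKM, DEFA4 at 0.138, BPI at 0.0471, and LTF and EPX had no reads, for which 3 reads over the 3 libraries would allow 0.00705 and 0.00909 FPKM. Of 14 listed members, 5 were high, 1 intermediate and 2 low, and 6 were under 1 FPKM. The order depends on the length used: with the annotated length PRTN3 was at 1170.2 FPKM, CTSG at 894, AZU1 at 700, ELANE at 569 and RNASE2 at 490.2, so that AZU1 came after PRTN3 and CTSG, and ELANE before RNASE2.

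AZU1, PRTN3 and ELANE are neighbours on chromosome 19 and CTSG lies on chromosome 14, and proximal promoters are shown because these genes were among the most abundant myeloid transcripts. PU.1 and the C/EBP factors, which are known to bind promoters of granule genes, give the motifs marked. The letters TATAAA of the TATA box and TAACNG, a form of the MYB motif, were also searched and had no match in any promoter shown. Other forms of these motifs were not searched and may be present. The bases just before the start of each gene are given 5′ to 3′ on the gene's strand, from RefSeq with build GRCh38.p14, at chr19:827587-827836 (plus strand) for AZU1, chr19:840749-840998 (plus strand) for PRTN3, chr19:859414-859663 (plus strand) for CFD, chr14:24576251-24576500 (minus strand) for CTSG and chr14:20955237-20955486 (plus strand) for RNASE2. Capitals mark matches to GAGGAA, the core bound by PU.1, and to TTNNGNAA, a reduced form of the C/EBP motif, on either strand.
AZU1: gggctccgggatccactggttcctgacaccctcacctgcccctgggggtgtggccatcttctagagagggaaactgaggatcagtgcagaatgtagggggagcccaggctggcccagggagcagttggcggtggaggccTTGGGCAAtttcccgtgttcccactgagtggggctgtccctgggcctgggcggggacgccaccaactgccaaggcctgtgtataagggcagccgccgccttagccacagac
PRTN3: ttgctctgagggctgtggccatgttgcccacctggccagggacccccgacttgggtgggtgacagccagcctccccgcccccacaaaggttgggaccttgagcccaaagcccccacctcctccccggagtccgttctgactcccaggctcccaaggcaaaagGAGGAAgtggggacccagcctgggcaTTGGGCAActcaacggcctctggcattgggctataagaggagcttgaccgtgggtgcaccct
CFD: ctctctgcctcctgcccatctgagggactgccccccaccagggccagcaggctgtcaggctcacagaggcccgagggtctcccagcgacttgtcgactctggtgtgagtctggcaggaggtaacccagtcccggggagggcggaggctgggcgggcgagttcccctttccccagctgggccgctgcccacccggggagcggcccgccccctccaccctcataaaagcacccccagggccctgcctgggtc
CTSG: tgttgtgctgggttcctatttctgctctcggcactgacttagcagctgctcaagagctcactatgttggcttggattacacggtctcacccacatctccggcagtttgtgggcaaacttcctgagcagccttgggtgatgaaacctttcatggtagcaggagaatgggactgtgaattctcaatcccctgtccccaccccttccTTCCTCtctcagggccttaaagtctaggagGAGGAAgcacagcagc
RNASE2: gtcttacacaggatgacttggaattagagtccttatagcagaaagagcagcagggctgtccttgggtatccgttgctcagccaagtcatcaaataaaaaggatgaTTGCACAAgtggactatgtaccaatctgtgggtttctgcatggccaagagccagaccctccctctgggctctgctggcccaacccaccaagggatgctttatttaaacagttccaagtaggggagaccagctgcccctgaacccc
AZU1 and PRTN3 carry the same 8 letters, TTGGGCAA, at 111 to 104 and at 62 to 55 bases before the start. PRTN3 has GAGGAA at 88 to 83 bases, and CTSG has it at 16 to 11 bases and, as TTCCTC on the given strand, at 46 to 41. RNASE2 has TTGCACAA, a match on the opposite strand, at 145 to 138 bases. CFD holds neither motif in this window. GAGGAA occurs in 23.3% and TTNNGNAA in 24.8% of 13019 promoters of the listed genes over the same window, so a match is common and describes letters only. Among the promoters of the 100 highest genes, 82 of which were matched, the shares were 14.6% and 31.7%. No entry was found for ELANE.

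In chromosomal order, PLPPR3 (59.9 FPKM, or 114 with the annotated length), AZU1, PRTN3, ELANE and CFD (156 FPKM) follow each other, and MED16 (20.9 FPKM) and R3HDM4 (31.8) come next. From AZU1 to CFD each gene was lower than the one before it in every library, but with the annotated length PRTN3 (1170.2 FPKM) lay above AZU1 (700). CFD encodes complement factor D, a serine protease that is secreted. Before PLPPR3 lie MISP, trace at 0.150 FPKM, and PTBP1, a splicing regulator, at 193.

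Matrix proteases were modest. The membrane protease MMP14 was at 69.3, 70.2 and 74.1 FPKM, and BSG, an inducer of matrix proteases, was at 412 ± 32.7. MMP9 (gelatinase B), a gene often used as a marker of PMA response in this line, was low at 7.53, 7.95 and 10.2 FPKM, with control 3 above the other libraries. The inhibitor TIMP1 was at 127, 131 and 112 FPKM (89.8 with the annotated length), above MMP9 in each library. MMP1 (0.415 FPKM), MMP8 (0.0434) and MMP3 (0.00440) were trace.

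Of 25 listed genes that make or remove reactive oxygen, 10 were high, 5 intermediate, 5 low and 4 trace, and 1 had no reads. The antioxidant genes ranged widely, from GPX1 at 1809 ± 43.0 FPKM, PRDX1 at 435, GPX4 at 434 and TXN at 301 through NQO1 at 55.3 and SOD2 at 12.2 to HMOX1 at 9.11 and SOD3 at 0.0233. The NADPH oxidase was uneven. Its membrane subunit CYBA (p22phox) was at 293, 299 and 283 FPKM, whereas CYBB (gp91phox), with which it pairs, was at 7.53, 7.63 and 7.66. CYBA exceeded CYBB by 38.4 ± 1.26 times, and CYBA was at 529 FPKM with the annotated length. The cytosolic subunits NCF1 (108 ± 5.18 FPKM, with pseudogene copies that may share reads) and NCF4 (96.5) and the GTPase RAC2 (318) were present. The inducible nitric oxide synthase NOS2 was trace at 0.0951, 0.0800 and 0.0478 FPKM, and NOX4 had no reads.

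For lipid mediators, ALOX5AP, which presents arachidonate to 5-lipoxygenase, was at 81.0 ± 7.09 FPKM, while ALOX5 itself was at 1.75. PTGS1, the constitutive cyclooxygenase, was at 7.45, 7.88 and 7.60 FPKM and the inducible PTGS2 at 0.382, 0.288 and 0.295. Of 17 listed members none was high and 5 were intermediate. Among surface and amino acid enzymes the ectopeptidase ANPEP (CD13) was at 71.0 FPKM, CES1 at 66.6 and CD38 at 32.4, whereas IDO1 (0.0851), ACOD1 (0.0928) and ENTPD1 (0.167) were trace. In the glycolysis list 10 of 27 genes were high, where 4.64% of all genes were. The share at 10 FPKM or more was 70.4%, against 29.3% of all genes. GAPDH was at 2089 ± 143 FPKM, ENO1 at 868, PKM at 559 and LDHA at 450, and PKLR, the liver and red cell pyruvate kinase, had no reads. LDHA exceeded LDHB in every library, by 1.31 ± 0.138 times, but with the annotated length they were closer, at 465 and 439 FPKM. ALDOA, an abundant enzyme in most cells, was listed at only 9.77 FPKM.

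Secreted proteins were led by CHI3L1 (YKL-40, a chitinase-like glycoprotein) at 2858, 2899 and 2675 FPKM. LGALS1, a galactoside-binding lectin, was at 2402, 2416 and 2689 FPKM, overlapping with CHI3L1 at its upper end. The granule proteoglycan SRGN, which holds proteases in storage, was at 1022, 931 and 891 FPKM (2185 with the annotated length). The lipoprotein components were unequal: APOC2 was at 353, 349 and 379 FPKM, APOC1 at 47.6 and APOE, a major product of mature macrophages, at 4.74, 3.76 and 4.88. SPP1 (1.48 ± 0.230 FPKM), FN1 (0.182 ± 0.0324) and SELENOP (0.193) were low or trace, and GPNMB was at 4.47. TGFBI, an adhesion protein, was at 105.

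Of the cytokines, MIF was at 744, 764 and 731 FPKM, rank 89 (443 with the annotated length). TNF was at 30.8, 27.8 and 26.4 FPKM and IL1B at 24.9, 25.01 and 33.0, so that both were intermediate without added lipopolysaccharide and their libraries overlapped. IL18 was at 10.4 ± 0.886 FPKM and EBI3 at 15.9. IL6 had 0, 2 and 1 reads and IL10 had 1, 0 and 0, which puts both at or under the limit of 3 reads over the 3 libraries. IL12B (0.0282 FPKM), IL1A (0.0237) and IFNB1 (0.0577) were trace, and IL34 and IL37 had no reads. Of 32 listed members, 18 were trace. GRN (progranulin) was at 194 ± 8.42 FPKM and TGFB1 at 80.3 ± 4.50, while IGF1 had no reads. The annotation also places CD70, the ligand of CD27, at 79.4 FPKM (238 with the annotated length) among the cytokines.

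Among chemokines, CCL5 was the only high member, at 113, 102 and 105 FPKM. CCL23 (32.2 FPKM), CCL3 (31.5, 29.3 and 35.1), CCL2 (17.7, 15.8 and 19.3) and CCL4 (14.2) were intermediate, as were CXCL8 at 19.02, 19.7 and 20.8 FPKM and the interferon-induced CXCL10 at 18.6, 14.1 and 17.0. CCL3 and CCL4 have near-identical copies, CCL3L3 (13.3 FPKM) and CCL4L2 (6.70), so their split is uncertain. The chemokines of alternatively activated macrophages CCL17 (0.0253 FPKM), CCL18 (0.0250) and CCL13 (0.0304) were trace, CCL22 was low at 5.07, and CXCL5 had no reads. Complement was sparse apart from CFD: C3 was at 9.54, 9.49 and 13.4 FPKM, C1QA at 5.96, 6.29 and 8.17, C1QB at 3.09 and C1QC at 6.50. Control 3 was highest for C3 and C1QA.

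The S100 family, small calcium-binding proteins, was split by member. S100A4 was at 881, 906 and 996 FPKM, S100A6 at 437 and S100A11 at 388. S100A9, which forms calprotectin with S100A8, was at 304, 338 and 306 FPKM, and S100A8 at 64.7, 71.2 and 50.1, which is a ratio of 5.19 ± 0.795. S100A12, which lies between those 2 genes, was low at 3.47 ± 0.380.

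**Figure D3:**
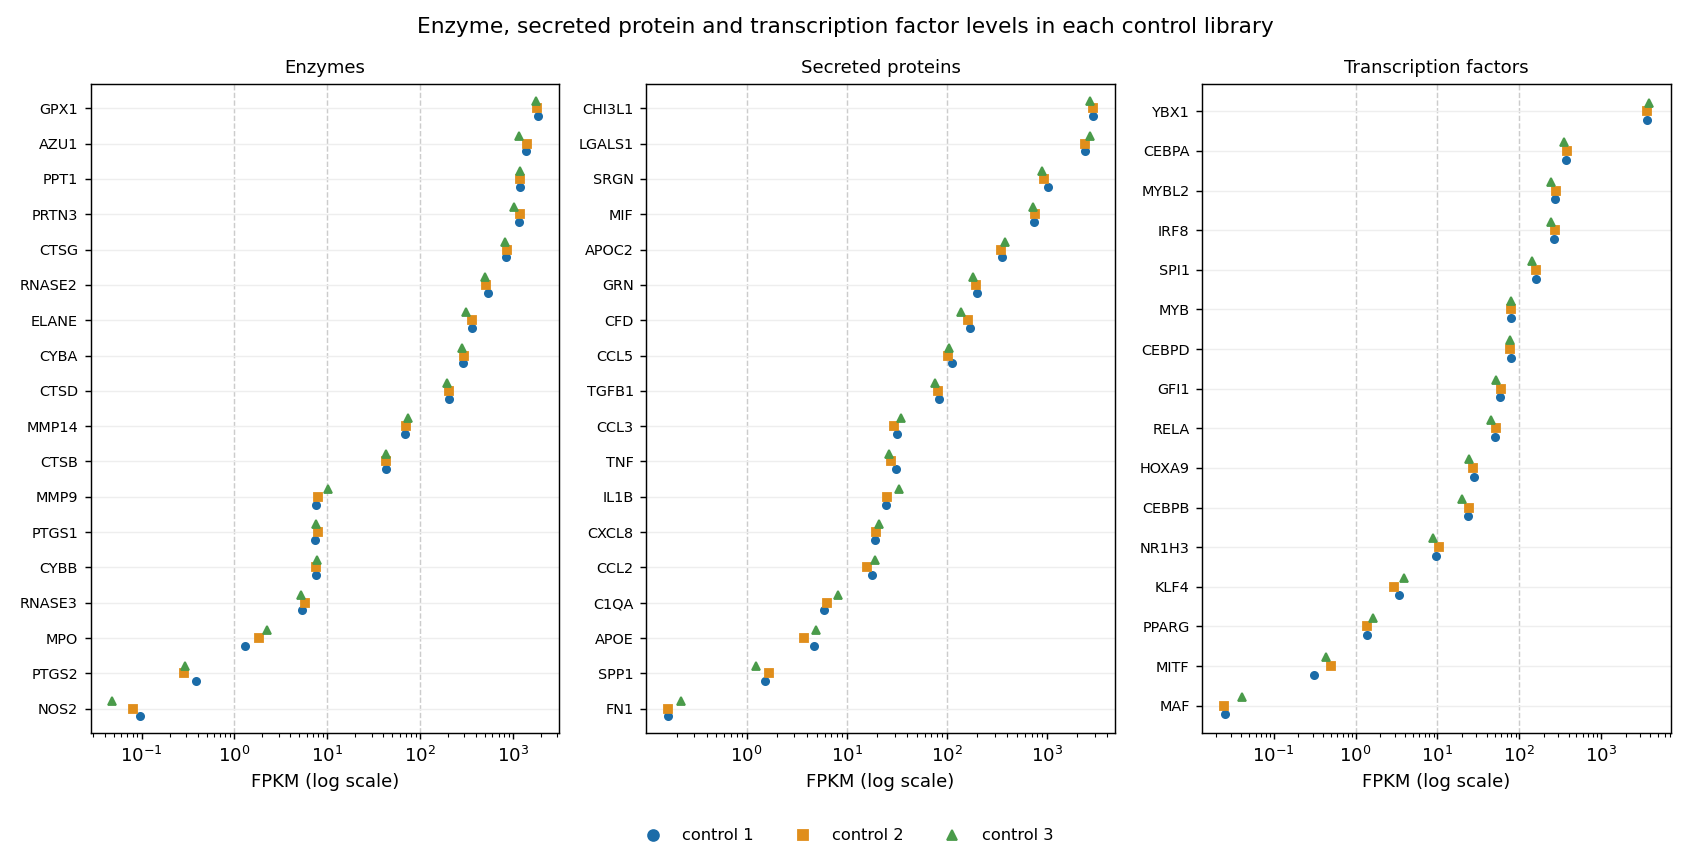
FPKM in each control library (x axis, log scale; circle control 1, square control 2, triangle control 3) for enzymes, secreted proteins and transcription factors; dashed lines mark 1, 10 and 100 FPKM. Granule proteases, CHI3L1 and CEBPA lie above 100 FPKM. MPO lies far below the granule proteases, and NOS2, FN1 and MAF are the lowest of their panels.

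Transcription factors of the myeloid lineage were led by CEBPA, which drives the step from progenitor to granulocyte and monocyte precursor, at 373, 379 and 355 FPKM. IRF8, which favours monocytes, was at 265, 271 and 244 FPKM and SPI1 (PU.1) at 161, 160 and 141 (340 with the annotated length). CEBPB, the family member that is prominent in mature macrophages, was at 23.7, 24.2 and 20.0 FPKM, below CEBPA by 16.4 ± 1.18 times. CEBPD was at 77.6 ± 1.21 FPKM (44.6 with the annotated length), and GFI1, a repressor active in early granulocyte development, at 56.5 ± 4.45 (123 with it). MAF, which restrains self-renewal in macrophages, was trace at 0.0303 ± 0.00933 (0.154 with the annotated length). KLF4 was at 3.41 ± 0.452 FPKM, PPARG at 1.46 ± 0.139 (5.09 with it), NR1H3 (LXR alpha) at 9.71 ± 0.811 and MITF at 0.418. IRF4 was trace, with 9, 1 and 1 reads, and GFI1B had no reads. In 42 listed lineage factors, 3 were high, 14 intermediate, 16 low and 8 trace.

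Of 26 listed leukaemia and homeobox factors none was high, 8 were intermediate, 7 low and 11 trace, and the share at 10 FPKM or more was 30.8%, against 29.3% of all genes. The list is a selection and leaves out the homeobox factor BARX1, which was high at 239 FPKM. MYB, a factor of progenitors, was at 78.8, 80.2 and 79.4 FPKM. Its relative MYBL2, a cell cycle factor that is not in this list, was high at 272, 281 and 247 FPKM. In the HOXA cluster, HOXA9 was at 27.8, 27.2 and 24.4 FPKM, HOXA10 at 20.6, 19.03 and 18.8 and HOXA11 at 14.9, while HOXA2 and EVX1, which borders the cluster, had no reads. HOXA9 was higher than HOXA10 in each library, by 1.36 ± 0.0671 times. HOXA9 and HOXA10 share a read-through transcript in RefSeq. MEIS1, a frequent partner of HOXA9 in leukaemia, was at 0.00183 FPKM. WT1 was at 10.5 FPKM and KMT2A at 2.77.

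Signal-dependent factors were mostly intermediate. NFKBIA, the inhibitor of NF-kB and also its target, was at 144 ± 7.16 FPKM, and RELA at 49.3 ± 3.68, above NFKB1 (21.9) and REL (2.71). None of the 12 listed NF-kB genes was under 1 FPKM. IRF3 (62.9 FPKM), STAT6 (62.8) and IRF5 (60.3) were close to each other. JUND (52.1 FPKM) and JUNB (51.2) exceeded JUN (3.64 ± 0.425), FOS (17.1) and FOSB (0.0769), EGR1 was at 3.58 ± 0.817, and MYC was at 35.3 ± 1.07 (67.3 with the annotated length). Of 30 listed nuclear receptors none was high, and RARB, THRB and HNF4A had no reads.

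By gene annotation, the 15 highest of 1083 transcription factors were CEBPA, MAZ, MYBL2, IRF8, PCBP1, BARX1, NFYC, SPI1, MEF2D, E2F4, USF1, ATF6B, XBP1, MYB and CEBPD. BARX1, a homeobox factor known from stomach and tooth development, was at 246, 245 and 226 FPKM, beside IRF8 in level. Only 8 of the annotated factors were high (0.739%) and 47.3% were under 1 FPKM, against 4.64% and 38.8% of all genes. Extracellular proteins by annotation were high more often, 146 of 1862 or 7.84%, but the term also holds proteins that are mainly inside the cell: its 15 highest were FTL, ACTB, YBX1, CAP1, TMSB4X, EEF1A1, CHI3L1, ACTG1, LGALS1, FTH1, PPIA, B2M, CFL1, RPL39 and AZU1.

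Genes of DNA replication and mitosis were all present. Of 28 listed, 8 were high and 20 intermediate, so that every one was at 10 FPKM or more, against 29.3% of all genes. CDC20, the activator of the anaphase complex, was at 686, 702 and 642 FPKM, and MCM7 (182 FPKM), TYMS (154), PLK1 (122) and CCNB1 (105, or 97.8 with the annotated length) were high. MKI67, the proliferation marker, was at 22.1, 21.0 and 35.3 FPKM, with control 3 above the other libraries, and its mean of 26.1 became 21.6 without it. Of the inhibitors of cyclin-dependent kinases, CDKN2C (131 ± 7.53 FPKM, or 98.5 with the annotated length) and CDKN1A (p21, 49.5 ± 4.79) were present, whereas CDKN2A and CDKN2B had 2 reads each over the 3 libraries.

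The fixed markers CAP1 and PPT1 are next to each other on chromosome 1, and the stretch around them was the highest in the genome by 1 measure, chosen after the values were seen. Among 15802 windows of 15 listed protein-coding neighbours, in RefSeq order of GRCh38.p14, the window from NT5C1A to SMAP2 had the highest median, at 166, 161 and 199 FPKM (175 for the gene means). That median is the value of 1 gene, BMP8B. The next separate window, from CRTC2 to IL6R, had 71.8 FPKM, and the median over all windows was 2.77. Of its 15 genes 8 were high, a number that no other window exceeded: SMAP2 (818 ± 45.7 FPKM), COL9A2 (405 ± 32.7), MFSD2A (342 ± 18.8), ZMPSTE24 (201 ± 7.86), PPIE (195 ± 13.3) and BMP8B (175 ± 21.0) besides the markers. COL9A2 encodes a chain of a cartilage collagen, MFSD2A a lipid transporter and SMAP2 a regulator of ARF GTPases. BMP8B has a near-identical neighbour, BMP8A (listed at low levels), so their split is uncertain. The next lower gene of the window was RLF at 30.1 FPKM, so the window's first place rests on BMP8B. Beyond the window, the 10 genes after it held 4 more high genes, CITED4 (691 ± 43.6 FPKM), NFYC (208, or 449 with the annotated length), CTPS1 (147) and EXO5 (142), and the 10 genes before it held NDUFS5 (547) and PABPC4 (234). In all 14 of these 35 genes were high, and the whole chromosome had 118 of 1679, these included. The stretch surrounds a window picked for its high median, so its share is not a separate finding. TMCO2 (0.0355 FPKM), HPCAL4 (0.0506) and NT5C1A (0.201, or 1.65 with the annotated length) lay in the same window at trace levels, so the stretch was not evenly high. With the annotated length the window's median was 193 FPKM, and without control 1, 2 or 3 it was 180, 182 and 163.

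**Figure D4:**
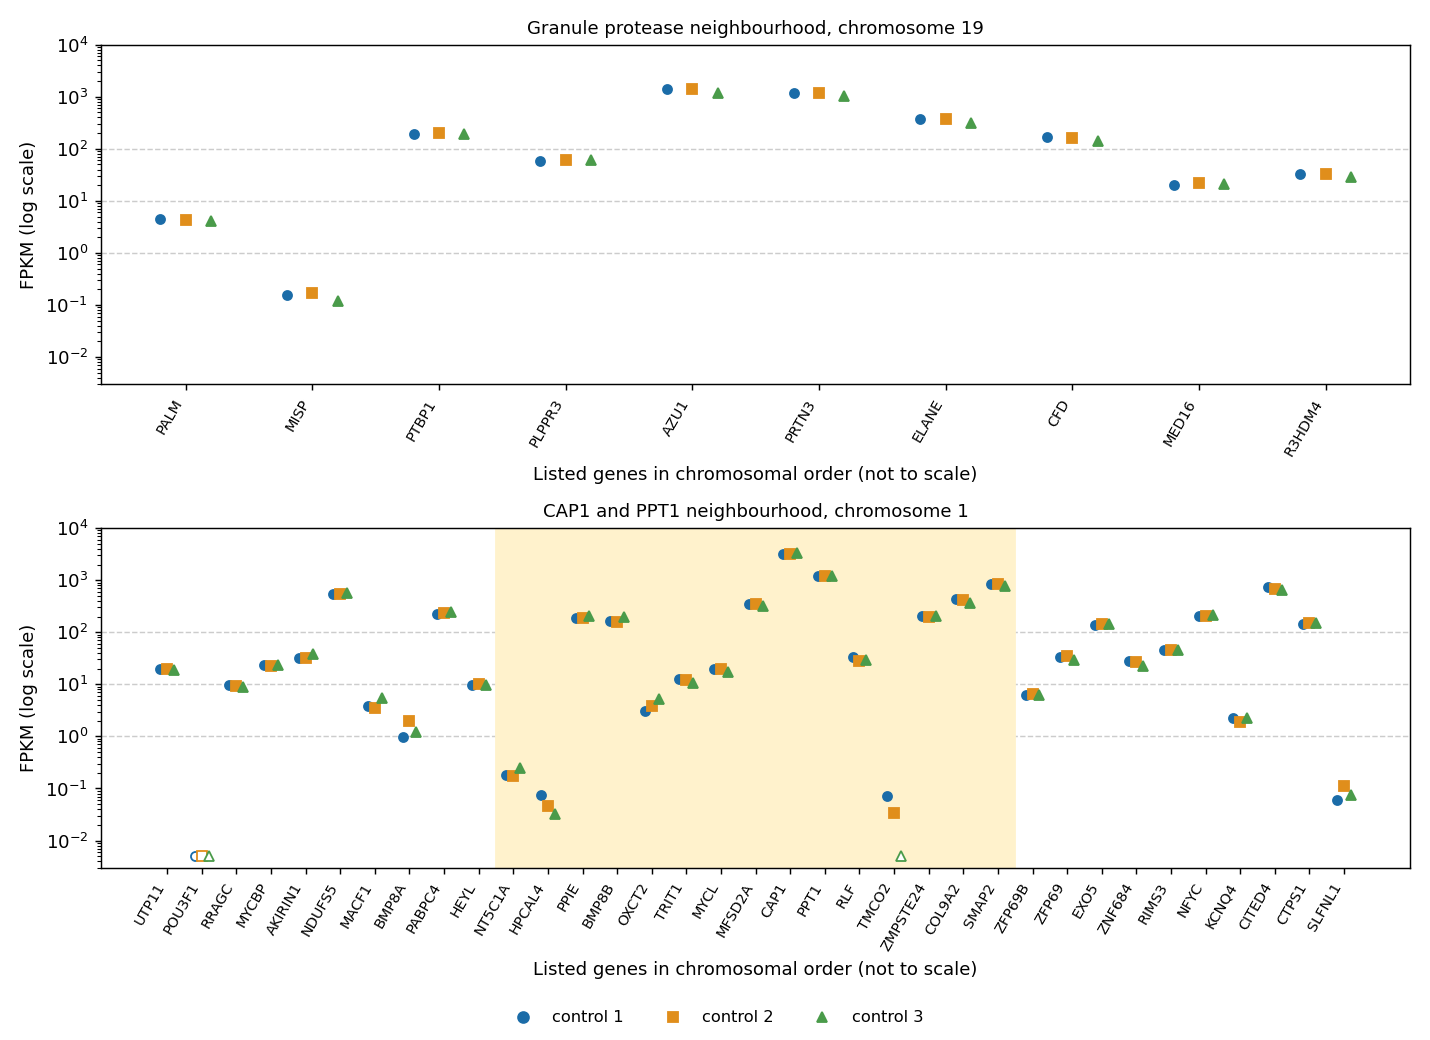
FPKM (y axis, log scale) of listed genes in chromosomal order (x axis, not to scale) in each control library, for the granule protease genes on chromosome 19 and for the CAP1 and PPT1 stretch on chromosome 1; shading marks the 15-gene window and open symbols mark a value of 0. AZU1, PRTN3, ELANE and CFD step down from left to right on the deposited scale (with the annotated length PRTN3 lies above AZU1), and 8 of the 15 shaded genes lie above 100 FPKM.

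The lists differed in how full they were. Of 294 listed receptor and sensor genes, 23 were high and 127 (43.2%) under 1 FPKM. Among 174 secreted proteins, 17 were high and 90 (51.7%) under 1. Of all genes listed, 4.64% were high, 29.3% reached 10 FPKM and 38.8% were under 1. Receptors and sensors, with 28.9% at 10 FPKM or more, were close to all genes by that measure. Of 197 enzymes 38 were high, and 48.7% reached 10 FPKM. Of 182 transcription factors 6 were high and 72 intermediate. The lists overlap in some members and were assembled with macrophages in view, so these shares are a description. Actin cytoskeleton genes, with 30 of 44 high, and elongation factors, with 8 of 11, were the fullest after the ribosomal proteins.

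**Figure D5:**
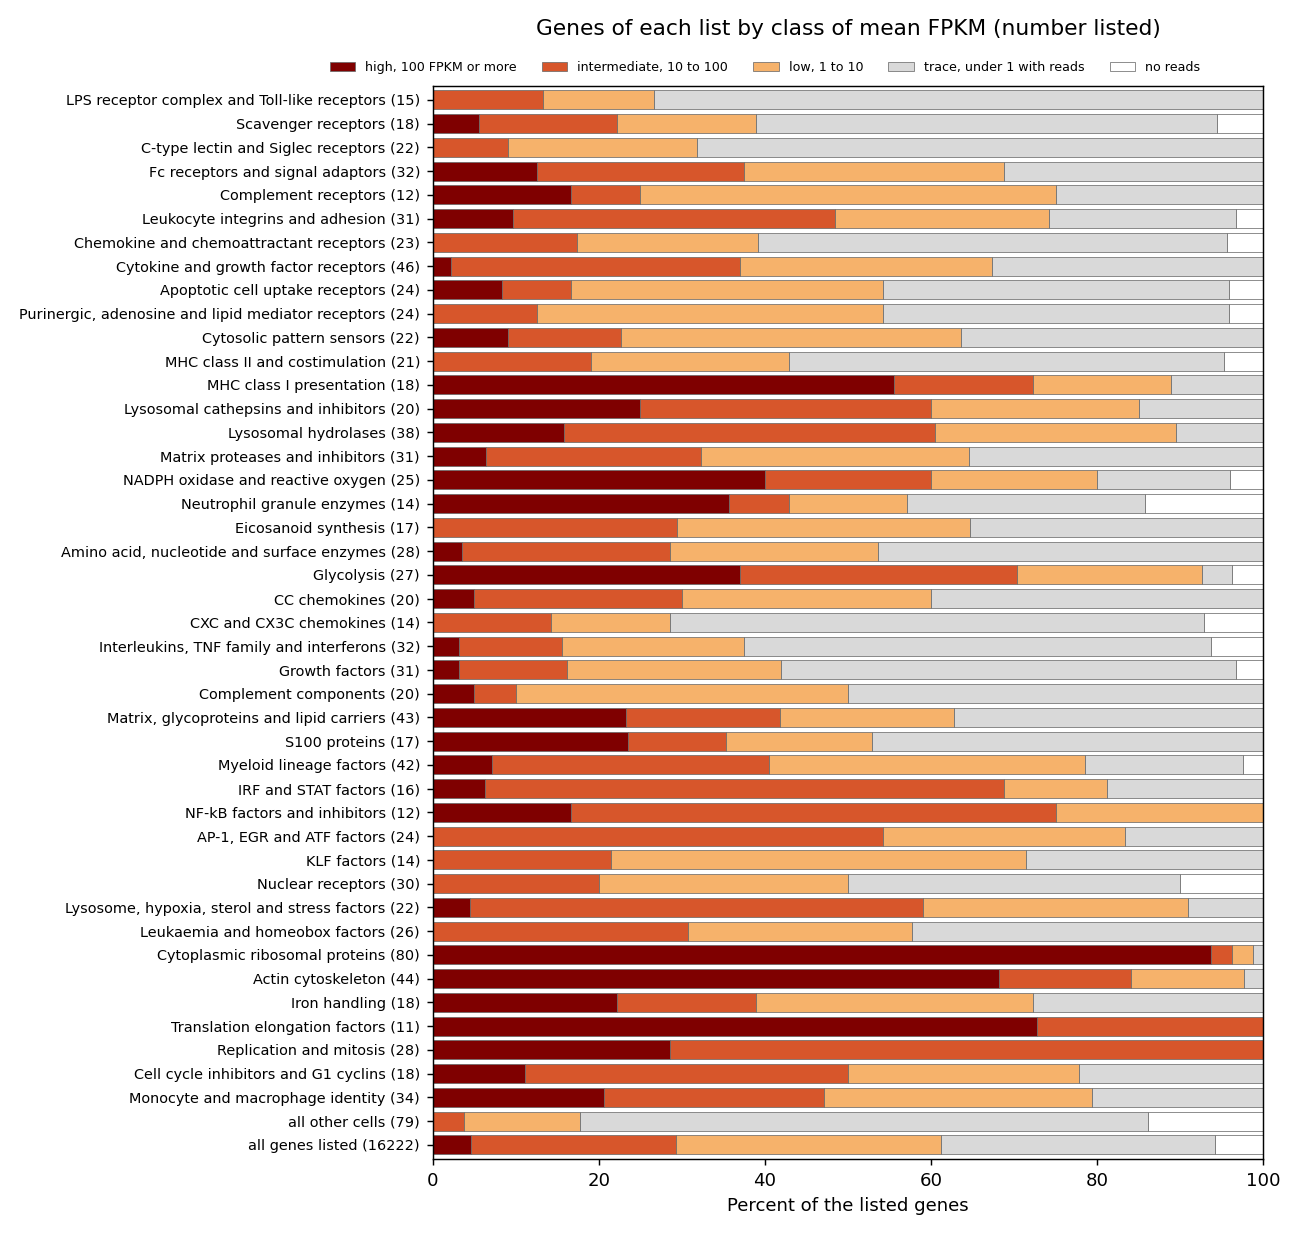
Percent of the listed genes of each list (x axis; y axis, list with its number of listed genes) in each class of mean FPKM, with all genes in the lowest bar. Replication and mitosis genes are all at 10 FPKM or more, whereas Toll-like receptors are mostly trace.

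The spread between libraries was small beside the differences between genes. The median CV was 4.61% for high, 5.98% for intermediate and 9.39% for low genes, and counting error alone would give 0.823%, 1.82% and 3.80%. The most variable gene at 10 FPKM or more was U2AF1L5 (3.57, 16.5 and 10.5 FPKM), a close copy of U2AF1, for which read placement is uncertain. The other 9 were PRRC2C, NACC2, BRI3BP, SRRM2, BAHCC1, EIF3C, EP300, ARID1A and TNRC18, each highest in control 3. The nuclear speckle protein SRRM2 was at 33.1, 30.8 and 63.3 FPKM and PRRC2C, a large RNA-granule protein, at 16.2, 14.3 and 32.4. Among the 100 most variable genes 70 were highest in control 3, against 33.6% of all 4756 genes at this level. When these genes were divided into 5 classes by length, control 3 lay a median of 0.0429 above the mean of the other libraries on the log2 scale in the longest class, and the median was -0.0962 in the class next to the shortest. The same genes were also divided into 5 classes by GC content, the percent of G and C bases in the annotated transcript. From the lowest class to the highest, the medians of control 3 were -0.0661, 0.0263, 0.0111, -0.0935 and -0.0906. What set control 3 apart was not tested.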

How the data were processed

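RNA from 9 THP-1 libraries was sequenced, and the 3 control libraries are described here. The authors deposited raw counts per gene and FPKM values. The submitters' processing notes name HTSeq, HISAT2 and fastp, besides R 3.2.0 and DESeq2, without roles; the genome build is not given in the sources used here, and per the labels' protocols 2 library kits are named, of which it is not stated which was used. Each deposited FPKM value equals the deposited count over 1 length per gene and the library's total, and the lengths recovered this way were whole bases for all 16222 genes. Every listed gene has a read in at least 1 of the 9 libraries.

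Genes were ranked by mean FPKM (Python 3.11.15, pandas 2.3.3) and divided at 100, 10 and 1 FPKM. Genes without reads were given the limit of 3 counts over the 3 libraries, which covers counting error only. The named genes are the 30 highest, the fixed markers, list members (the 4 highest of each list, those without reads, and markers of a function), the 10 most variable, and the 15 highest by annotation. The genes and lists were chosen with earlier results of these data known, and the annotation terms and chromosomal stretches after their values were seen. Ranking and classes were tested on simulated counts that carry counting error only. The spread between these libraries was larger than that, so the simulation does not cover it. Alternatives were another length, TMM factors (edgeR 4.0.16), rescaling to TPM, pseudocounts and each library left out. No test between groups was made. The results of some genes are not reported here.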

Additional observations from a re-analysis of the deposited data

How the results depend on the processing

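Class counts, ranking and shares were recomputed under each alternative. Rescaling FPKM to TPM moved the genes at 100 or more from 753 to 1528, because every level is multiplied by the same factor within a library. TMM factors multiplied the levels of the 338 named genes by 0.988 to 1.02. Detection by at least 1 count in any control library gave 15272 genes, against 9923 at 1 FPKM. With ribosomal protein genes left out of the sum, the 10, 100 and 1000 highest genes held 11.8%, 31.6% and 67.1%, against 10.7%, 38.8% and 73.0%. Leaving out 1 library gave a median CV of 2.81% to 5.91%, lowest without control 3. With the longest annotated transcript as length, 1164 of 16090 genes (7.23%) changed class. Without control 1, 2 or 3, 173, 180 and 247 of all genes did. The largest change of rank among named genes with 1 library left out was 2204 places, without control 3. No paired analysis was possible because only 1 group is described and no result comes from a test.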
